A study of Mus musculus with 22 samples.

Results

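Lysosomes are the acidic compartment in which macrophages digest what they take up. Their cathepsins cut proteins, their glycosidases and lipid hydrolases take apart sugar chains and fats, and membrane proteins such as LAMP1 line the compartment. TFEB, TFE3 and MITF belong to the MiT family of transcription factors, which bind the E-box CACGTG. TFEB is known for switching on lysosomal genes through the longer CLEAR motif when it enters the nucleus. Transcript levels of 37 genes of this system were followed here in BMDM, macrophages that were derived in culture from mouse bone marrow. The 37 genes were chosen by function: 10 cysteine proteases (9 cathepsins and legumain), 2 aspartic cathepsins, 2 serine peptidases, 9 glycosidases, 3 lipid hydrolases or activators, 2 cholesterol export proteins, 6 membrane proteins and 3 MiT factors. Of the 37 genes, 36 had a probe that could be tested, within 22379 genes tested in all, and Cd68, a macrophage lysosomal membrane protein, had no matched probe.

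The BMDM were wild-type (wt), lacked the kinase MK2 (MK2-/-) or lacked MK2 together with its close relative MK3 (MK2/3-/-), with donor mice all of strain C57BL/6 and labelled as male. The wt mice were 12 to 13 weeks old, the MK2-/- mice 10 to 13 weeks and the MK2/3-/- mice 11 to 14 weeks. The abstract of the study describes the wt mice as littermates. Marrow of every group was grown for 9 days with 10 ng/ml M-CSF, the growth factor that turns marrow cells into macrophages. The cells then stayed for 360 min in medium or in medium with 100 ng/ml lipopolysaccharide (LPS), a cell wall component of Gram-negative bacteria. There were 3 wt, 4 MK2-/- and 4 MK2/3-/- arrays with LPS and 4, 4 and 3 arrays with medium, 22 in all. The deletions are present in the whole animal. The methods speak of independent experiments without saying which arrays belong together, so p-values measure the spread between these arrays.

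Levels are log2 values of the quantile-normalised array signal, and a difference of 1 on this scale is a 2-fold change. Levels of different genes are not compared, since each probe has its own brightness. A gene was called changed at a Benjamini-Hochberg adjusted p below 0.05 in limma over all 22379 genes. The probes well above background made up 61.0% to 82.7% of an array. All 7 macrophage markers, among them Adgre1, Csf1r and Lyz2, were above background on all 22 arrays. The list of 5 dendritic cell markers had a summed level of 8.41 to 9.95 in medium and 12.58 to 15.00 with LPS. In wt the LPS-inducible Ccr7 rose from a mean of 8.05 in medium to 12.62 with LPS, and Zbtb46 from 6.87 to 10.58. Flt3 went down from 6.87 to 6.03 and Cd209a from 4.98 to 3.63. The directions were the same in both knockouts. Xcr1, which defines one class of these cells, was above background on all 4 LPS arrays of MK2/3-/- BMDM and on no other. The part of dendritic cells in the LPS results was not tested. In such bulk samples fewer cells of a type cannot be told apart from less RNA per cell. Mapkapk2, which encodes MK2, read 8.34 to 9.01 in medium in both knockouts, and 10.77 to 12.39 in wt. With LPS it read 10.86 to 11.95 in the knockouts and 14.28 to 15.33 in wt, so that its probe also rose in the knockouts. Mapkapk3, which encodes MK3, read 7.65 to 8.55 with LPS in MK2/3-/- BMDM against 11.94 to 12.23 in wt, and 10.94 to 11.40 in medium against 12.83 to 13.42, so that its probe was lower but still bright in the MK2/3-/- medium arrays. Whether these probes lie in the deleted parts was not analysed here. The LPS-inducible genes Tnf, Il6, Il1b, Nos2, Cxcl10 and Ifnb1 rose in all 3 genotypes. Replicate 3 of MK2-/- BMDM, with and without LPS, went against its male label (Ddx3y 1.99 and 2.01, 10.09 or more on the other arrays), and the LPS array of this pair had 2927 spots marked as faulty, against 115 to 261 on the others. The medium array of wt replicate 4 had a raised Cxcl10 level of 15.03, against 9.70 to 12.78 on the other medium arrays. All arrays of 1 genotype lay on 1 slide, so that genotype and slide cannot be told apart in direct comparisons of genotypes. LPS and medium shared a slide within each genotype.

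After quantile normalisation most of the 36 genes were lower with LPS, 25 of them in all 3 genotypes. In wt BMDM 26 genes fell and 2 rose, with a median change over the 36 of -1.003 on the log2 scale. The 28 called are 77.8% of the 36, while 42.1% of all genes tested were called, 23.5% lower and 18.6% higher, with a median of -0.04. In MK2-/- BMDM again 26 fell and 2 rose with a median of -1.10, beside 44.6% of all genes called, 27.1% lower and 17.5% higher. In MK2/3-/- BMDM the counts were 26 and 2 and the median was -1.23, beside 48.2% of all genes called, 27.9% lower and 20.2% higher. A fall in all 3 genotypes was seen in 25 of 36 here and in 19.7% of all genes, and Ctsc and Mitf rose in all 3. The 7 genes called in no genotype were Ctsf, Ctsk, Ctsz, Ctse, Gla, Npc2 and Lamp2. Without the LPS array of wt replicate 3 the count in wt was 23, with the calls of Ctsl, Ctso, Ctss, Scarb2 and Cd63 lost. The share of all genes called in that fit is not given.

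**Figure D1:**
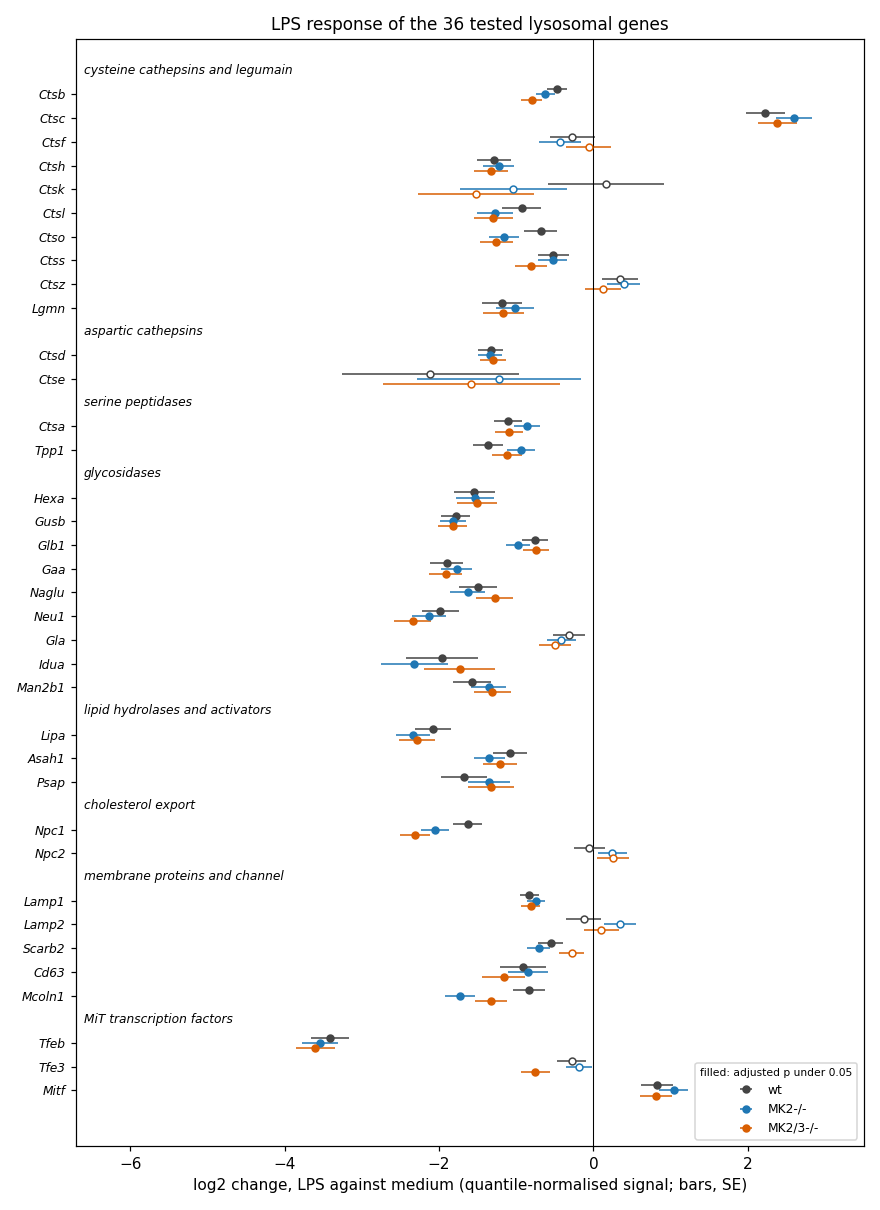
Log2 change with LPS for the 36 genes, grouped by role, in wt (black), MK2-/- (blue) and MK2/3-/- BMDM (orange), with SE bars and filled points where the adjusted p was below 0.05. The points of the 3 genotypes lie close together for most genes, Tfeb lies farthest to the left (-3.41 in wt) and Ctsc farthest to the right (2.23).

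The size of this fall depended on how the arrays were scaled. When each array was set to its 75th percentile and not quantile normalised, the median change of all genes was 0.30, 0.28 and 0.29 in wt, MK2-/- and MK2/3-/- BMDM, and the median of the 36 was -0.40, -0.53 and -0.40. The called genes then were 12 lower and 6 higher in wt, 15 and 5 in MK2-/-, and 11 and 5 in MK2/3-/- BMDM, beside 47.0%, 44.5% and 47.4% of all genes called. Among all called genes the share that were higher moved from 44.2% to 60.5% in wt, from 39.2% to 53.6% in MK2-/- and from 42.0% to 54.0% in MK2/3-/- BMDM. The brightest members moved most: the wt change shifted by a median of 0.82 in the 20 genes with a mean level above 14, and by 0.32 in the other 16. Under both scalings 9 genes fell in all 3 genotypes, namely Tfeb, Lipa, Neu1, Idua, Gaa, Gusb, Naglu, Npc1 and Tpp1. These are 25.0% of the 36, beside 14.6% of all genes. Ctsc and Mitf rose under both.

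**Figure D2:**
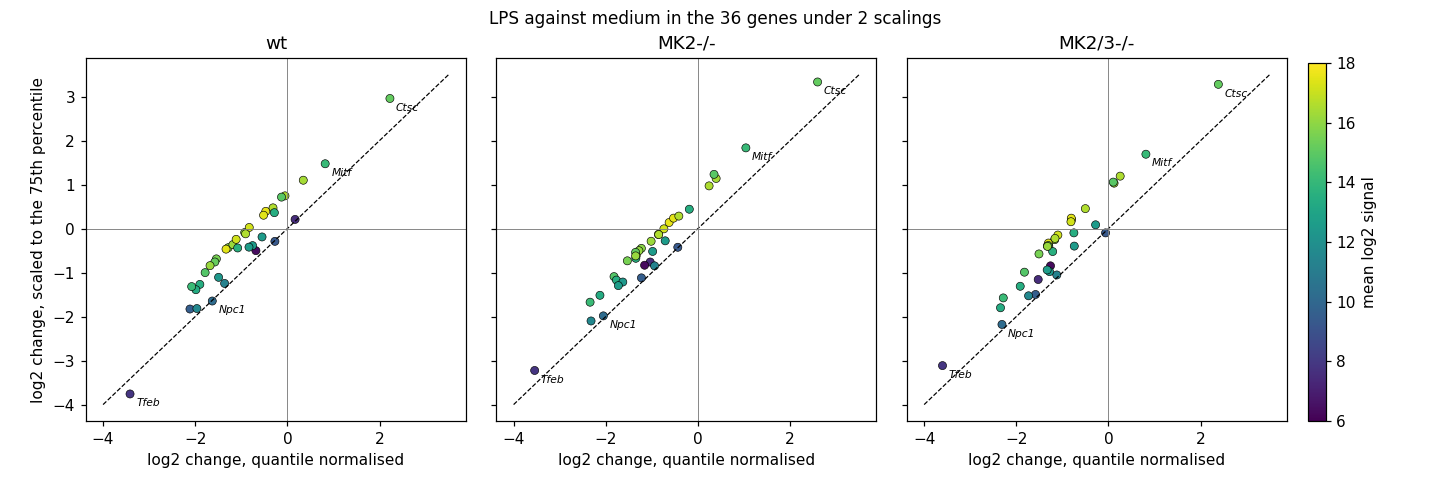
Log2 change with LPS of the 36 genes after quantile normalisation (x axis) and after scaling to the 75th percentile (y axis) in each genotype, coloured by the mean log2 signal, with a dashed line of equality. Nearly all points lie above the line, and the bright genes lie farthest above it (median shift in wt 0.82 above a signal of 14 and 0.32 up to it).

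Among the 3 MiT factors, Tfeb fell steeply, Mitf rose and Tfe3 was called in 1 genotype. Tfeb read 9.34, 9.41, 9.45 and 9.47 in medium in wt BMDM and 6.16, 6.25 and 5.59 with LPS. Its MK2-/- arrays read 9.79, 10.17, 9.67 and 9.74 in medium and 6.64, 6.52, 5.47 and 6.57 with LPS. In MK2/3-/- BMDM the medium arrays read 9.59, 9.53 and 9.37 and the LPS arrays 5.64, 6.11, 6.21 and 5.63. Every LPS array was thus more than 2 units below every medium array, with no overlap in any genotype. The fall was 10.7-fold in wt (log2 change -3.41, SE 0.25, adjusted p = 4.79e-09), 11.7-fold in MK2-/- (-3.54, SE 0.23, 4.54e-10) and 12.1-fold in MK2/3-/- BMDM (-3.60, SE 0.25, 1.18e-09). Tfeb had the largest fall of the 36 genes in each genotype under both scalings. The difference of its response between MK2-/- and wt was -0.13, with a 95% interval from -0.84 to 0.59, and between MK2/3-/- and wt it was -0.19, with an interval from -0.93 to 0.55. The order of the genotypes turned with the scaling. With scaling to the 75th percentile the log2 changes of Tfeb were -3.76 in wt, -3.22 in MK2-/- and -3.11 in MK2/3-/- BMDM.

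Mitf, the family member best known from pigment cells and osteoclasts, read 13.13, 13.80, 13.51 and 13.06 in wt medium and 14.01, 14.37 and 14.21 with LPS. The rise was 1.77-fold in wt (log2 change 0.82, SE 0.21, adjusted p = 0.00334), 2.06-fold in MK2-/- and 1.76-fold in MK2/3-/- BMDM. LPS arrays were above medium arrays in each genotype without overlap. A second Mitf probe gave log2 changes of 1.14, 1.59 and 1.06. Tfe3 read 13.25, 13.81, 13.87 and 13.71 in wt medium and 13.38, 13.63 and 13.13 with LPS, and the groups overlapped. Its change was -0.28 in wt and -0.19 in MK2-/- BMDM, neither past the test, and it fell by 0.75 (SE 0.18, adjusted p = 0.00223) in MK2/3-/- BMDM, where the LPS arrays (12.87 to 13.28) lay below the medium arrays (13.63 to 14.00). A second Tfe3 probe showed 0.34, 0.18 and -0.04, and with scaling to the 75th percentile the fall in MK2/3-/- BMDM was not called (-0.10). The Tfe3 response did not pass the test of a difference between MK2/3-/- and MK2-/- BMDM (-0.56, 95% interval -1.09 to -0.04, adjusted p = 0.542).

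**Figure D3:**
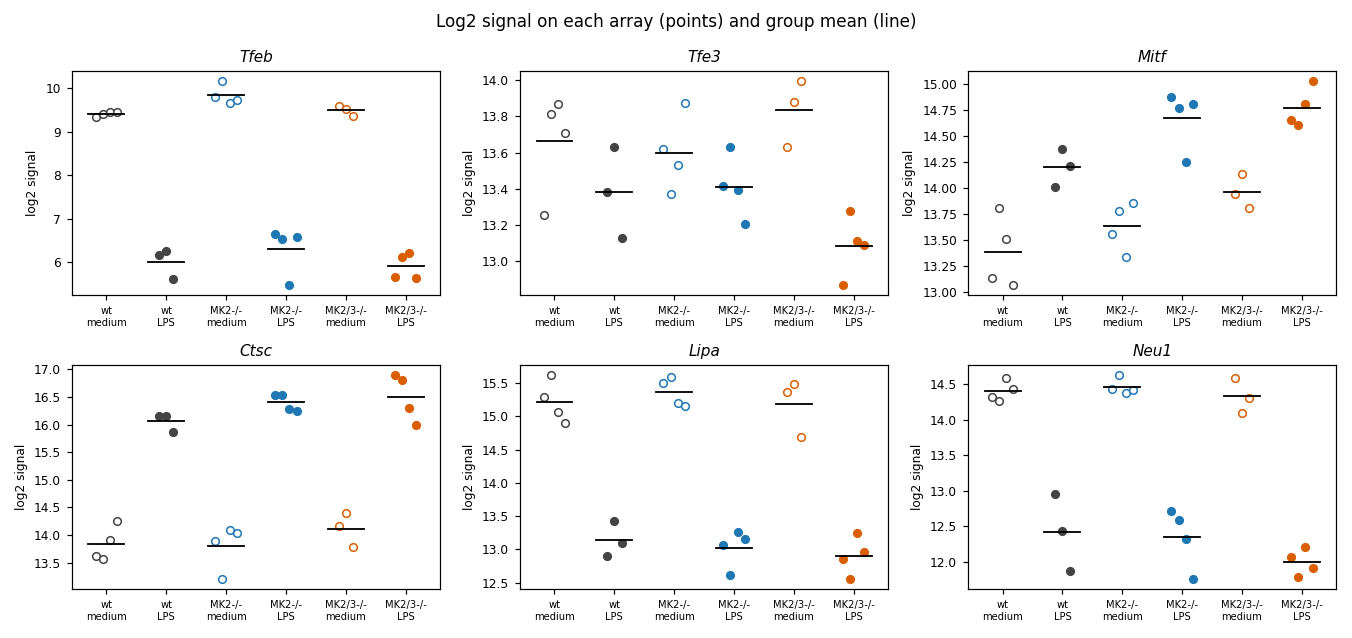
Log2 signal of Tfeb, Tfe3, Mitf, Ctsc, Lipa and Neu1 on each array (open points medium, filled points LPS) with the group mean as a line, on a separate y axis per gene. LPS and medium do not overlap for Tfeb, Mitf, Ctsc, Lipa and Neu1 in any genotype, while Tfe3 overlaps in wt and MK2-/- BMDM.

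The promoters of the 37 genes were searched for the letters of these factors' binding motifs. RefSeq promoters of the build GRCm38.p6, from 250 bases before to 50 bases after the start, were matched for 32 of the 37 genes (40 promoters). The E-box core CACGTG, which reads the same on both strands, was in the promoter of 11 of the 32 genes (34.4%), compared with 8.09% of the 27025 genes with a promoter in the table. The longer TCACGTGA, the core of the CLEAR motif, which contains CACGTG and also reads the same on both strands, was in 4 of the 32 genes (12.5%) and in 1.12% of all genes. These 4 are Mcoln1 (chr8:3500269-3500568, plus strand), Ctsd (chr7:142387778-142388077, minus strand), the second promoter of Ctsa (chr2:164833523-164833822, plus strand) and Gla (chrX:134600956-134601255, minus strand). They are shown with Lamp1 (chr8:13158911-13159210, plus strand), which held 4 copies of CACGTG, the most among the matched promoters. Each runs 5′ to 3′ on the strand of the gene, with the motifs in capitals.
Mcoln1: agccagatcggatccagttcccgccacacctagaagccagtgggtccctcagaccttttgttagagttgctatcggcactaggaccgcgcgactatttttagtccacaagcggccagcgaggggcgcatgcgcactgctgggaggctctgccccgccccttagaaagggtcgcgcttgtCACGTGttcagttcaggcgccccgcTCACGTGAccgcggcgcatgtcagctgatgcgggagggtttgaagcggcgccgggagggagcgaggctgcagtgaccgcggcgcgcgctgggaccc
Ctsd: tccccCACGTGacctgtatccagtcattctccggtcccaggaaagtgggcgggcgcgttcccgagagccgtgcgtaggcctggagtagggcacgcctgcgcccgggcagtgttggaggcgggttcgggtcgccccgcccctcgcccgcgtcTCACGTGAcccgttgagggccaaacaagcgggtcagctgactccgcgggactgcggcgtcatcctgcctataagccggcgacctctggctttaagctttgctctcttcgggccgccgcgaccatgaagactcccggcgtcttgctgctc
Ctsa: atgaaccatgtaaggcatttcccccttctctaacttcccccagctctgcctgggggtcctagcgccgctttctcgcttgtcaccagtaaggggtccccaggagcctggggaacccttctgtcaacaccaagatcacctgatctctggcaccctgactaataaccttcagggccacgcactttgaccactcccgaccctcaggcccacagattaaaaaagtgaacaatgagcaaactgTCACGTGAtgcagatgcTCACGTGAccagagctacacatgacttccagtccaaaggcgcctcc
Gla: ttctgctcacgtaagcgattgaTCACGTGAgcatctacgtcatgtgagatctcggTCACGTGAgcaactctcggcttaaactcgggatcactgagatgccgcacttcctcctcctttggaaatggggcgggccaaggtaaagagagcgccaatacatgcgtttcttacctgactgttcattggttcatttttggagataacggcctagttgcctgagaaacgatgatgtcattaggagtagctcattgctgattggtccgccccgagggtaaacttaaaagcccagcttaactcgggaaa
Lamp1: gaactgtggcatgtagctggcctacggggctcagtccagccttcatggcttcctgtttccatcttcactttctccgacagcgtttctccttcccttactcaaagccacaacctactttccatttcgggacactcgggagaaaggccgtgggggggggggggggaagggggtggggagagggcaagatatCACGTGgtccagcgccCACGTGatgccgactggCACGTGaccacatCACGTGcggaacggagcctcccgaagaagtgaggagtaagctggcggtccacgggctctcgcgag
Ctsa and Gla each held 2 copies of TCACGTGA, and Mcoln1 and Ctsd held 1 copy and 1 further CACGTG. Of these 5 genes, Mcoln1, Ctsd, Ctsa and Lamp1 fell with LPS in all 3 genotypes after quantile normalisation and Gla was not called. In wt BMDM 9 of the 11 genes with CACGTG fell, with a median change of -0.93, and 13 of the 20 tested genes without it fell and 2 rose, with a median of -0.80. The medians were -1.02 and -0.99 in MK2-/- and -1.17 and -1.21 in MK2/3-/- BMDM. A match is a description of letters and not a binding site.

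Of the 10 cysteine proteases, 6 fell and 1 rose in each genotype, while with scaling to the 75th percentile 2 rose in each and 0, 1 and 1 fell. The riser was Ctsc, cathepsin C, which activates the serine proteases of granulocytes and lymphocytes. Ctsc read 13.62, 13.56, 13.90 and 14.25 in medium in wt BMDM, and 16.16, 16.15 and 15.86 with LPS. In MK2-/- BMDM it read 13.89, 13.20, 14.10 and 14.04 in medium and 16.54, 16.54, 16.28 and 16.25 with LPS. Its MK2/3-/- levels were 14.16, 14.40 and 13.79 in medium and 16.89, 16.81, 16.29 and 16.00 with LPS. All LPS arrays lay above all medium arrays. The rise was 4.68-fold in wt (log2 change 2.23, SE 0.25, adjusted p = 9.99e-07), 6.05-fold in MK2-/- and 5.22-fold in MK2/3-/- BMDM, and it had the largest rise of the 36 genes under both scalings.

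Cathepsin H (Ctsh), an aminopeptidase, and legumain (Lgmn), which cuts after asparagine, fell by similar amounts in all genotypes. Ctsh read 16.18, 16.90, 16.46 and 16.06 in wt medium and 15.16, 15.23 and 14.96 with LPS, a 2.43-fold fall (adjusted p = 0.000113), with 2.34-fold and 2.51-fold in MK2-/- and MK2/3-/- BMDM. Lgmn fell 2.27-fold, 2.02-fold and 2.25-fold. Ctsl, a major endopeptidase of the compartment, fell 1.90-fold, 2.43-fold and 2.45-fold, and Ctso fell 1.61-fold, 2.23-fold and 2.39-fold. The endopeptidases Ctsb and Ctss, the latter known from antigen presentation, had small changes. Ctsb fell 1.38-fold in wt (log2 change -0.47, SE 0.13, adjusted p = 0.00825) and Ctss 1.43-fold (-0.52, SE 0.20, 0.0474), but with scaling to the 75th percentile both had the opposite sign in wt (0.39 and 0.30) and in the knockouts, without a call. Ctsh, Lgmn and Ctsl were not called under that scaling in any genotype, and Ctso was called only in the knockouts. Ctsz, a carboxypeptidase, was uncalled (0.35, 0.40 and 0.12), and it was called higher in all 3 genotypes with the other scaling (1.099, 1.14 and 1.03). Ctsf did not pass the test either (-0.27, -0.44 and -0.06).

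Of the aspartic and serine peptidases, Ctsd, the main aspartic protease of the lysosome, fell 2.52-fold in wt (log2 change -1.33, SE 0.17, adjusted p = 2.96e-06), 2.53-fold in MK2-/- and 2.47-fold in MK2/3-/- BMDM. Ctsd read 17.73, 18.24, 18.11 and 17.87 in wt medium and 16.37, 16.94 and 16.66 with LPS, with no overlap. Ctsa, a carboxypeptidase that also shields the sialidase NEU1, fell 2.16-fold, 1.81-fold and 2.14-fold. Tpp1, a tripeptidyl peptidase, read 11.86, 11.94, 12.03 and 11.98 in wt medium and 10.27, 10.88 and 10.62 with LPS, a 2.57-fold fall (adjusted p = 1.51e-05). With scaling to the 75th percentile Tpp1 still fell in all 3 genotypes, Ctsd in MK2-/- BMDM, and Ctsa in none.

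Among the 9 glycosidases, 8 fell in each genotype, and 7, 7 and 5 fell with scaling to the 75th percentile in wt, MK2-/- and MK2/3-/- BMDM. Neu1, which removes sialic acid, read 14.33, 14.26, 14.59 and 14.43 in wt medium and 12.95, 12.44 and 11.87 with LPS. Its fall was 3.96-fold in wt (log2 change -1.99, SE 0.24, adjusted p = 1.99e-06), 4.37-fold in MK2-/- and 5.07-fold in MK2/3-/- BMDM. Gaa, which degrades glycogen, read 14.49, 14.57, 14.75 and 14.35 in wt medium and 12.66, 12.71 and 12.55 with LPS. It fell 3.73-fold, 3.41-fold and 3.77-fold. Idua, which acts on heparan and dermatan sulfate, varied widely in medium, with 12.35, 13.44, 12.44 and 11.13 in wt medium and 10.10, 10.71 and 10.32 with LPS. Its fall was 3.90-fold in wt (SE 0.47 on the log2 scale, adjusted p = 0.00215), 4.99-fold in MK2-/- and 3.33-fold in MK2/3-/- BMDM. Gusb, beta-glucuronidase, fell 3.45-fold, 3.53-fold and 3.54-fold, and in wt it read 15.54, 16.07, 15.75 and 15.72 in medium and 14.00, 13.93 and 14.02 with LPS. Naglu, a heparan sulfate glycosidase, fell 2.81-fold, 3.10-fold and 2.43-fold.

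The other glycosidases had smaller changes or a call that moved with the scaling. Hexa, which clears gangliosides, fell 2.91-fold, 2.89-fold and 2.84-fold, and Man2b1, an alpha-mannosidase, 2.98-fold, 2.55-fold and 2.47-fold. Glb1, beta-galactosidase, read 12.61, 13.02, 12.80 and 12.81 in wt medium and 11.80, 12.15 and 12.20 with LPS, a 1.69-fold fall, with 1.98-fold and 1.67-fold in the knockouts. Under scaling to the 75th percentile Hexa fell in wt and MK2-/-, Man2b1 in wt and Glb1 in MK2-/- BMDM. Gla, alpha-galactosidase A, was not called (-0.31, -0.41 and -0.50), and with the other scaling its change was 0.47 in wt, called, 0.28 in MK2-/- and 0.45 in MK2/3-/- BMDM.

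All 3 lipid genes fell. Lipa, lysosomal acid lipase, frees cholesterol from its esters and read 15.28, 15.62, 15.07 and 14.90 in wt medium and 12.90, 13.43 and 13.10 with LPS. In MK2-/- BMDM it read 15.50, 15.60, 15.19 and 15.16 in medium and 13.07, 12.61, 13.25 and 13.16 with LPS, and in MK2/3-/- BMDM 15.37, 15.49 and 14.70 in medium and 12.86, 12.55, 13.24 and 12.96 with LPS. Its fall was 4.22-fold in wt (log2 change -2.08, SE 0.24, adjusted p = 1.04e-06), 5.06-fold in MK2-/- and 4.87-fold in MK2/3-/- BMDM, with no overlap of the groups. Asah1, acid ceramidase, fell 2.11-fold, 2.55-fold and 2.31-fold, and Psap, the precursor of the saposins that present lipids to their enzymes, 3.20-fold, 2.55-fold and 2.50-fold. With scaling to the 75th percentile Asah1 was called in MK2-/- and Psap in wt BMDM only.

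The 2 proteins that carry cholesterol out of the lysosome parted. Npc1, the membrane transporter, read 11.36, 11.44, 11.27 and 11.50 in wt medium and 9.68, 9.76 and 9.85 with LPS, and it fell 3.10-fold in wt (log2 change -1.63, SE 0.19, adjusted p = 1.34e-06), 4.15-fold in MK2-/- and 4.96-fold in MK2/3-/- BMDM. Npc2, the soluble carrier, had changes of -0.05, 0.24 and 0.25 that did not pass the test, and with scaling to the 75th percentile it was called higher in all 3 genotypes (0.74, 0.97 and 1.19).

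Of the membrane proteins, Mcoln1, the calcium channel TRPML1, read 12.77, 13.15, 13.34 and 12.99 in wt medium and 12.19, 12.18 and 12.32 with LPS. Its MK2-/- levels were 13.12, 13.86, 13.38 and 13.37 in medium and 11.60, 11.63, 11.60 and 12.00 with LPS, and in MK2/3-/- BMDM it read 13.05, 13.13 and 13.59 and then 11.75, 11.59, 12.06 and 12.31. LPS and medium did not overlap in any genotype. The fall was 1.78-fold in wt (log2 change -0.83, SE 0.21, adjusted p = 0.00341), 3.31-fold in MK2-/- (-1.73, SE 0.19, 4.85e-07) and 2.51-fold in MK2/3-/- BMDM. With scaling to the 75th percentile it was called in both knockouts and not in wt. The test of the difference of the response between MK2-/- and wt gave -0.89 with a 95% interval from -1.49 to -0.29, and an adjusted p of 0.442. Lamp1, the structural membrane glycoprotein, varied little within groups, at 17.55 to 17.79 in wt medium and 16.77 to 16.93 with LPS, and fell 1.77-fold, 1.67-fold and 1.76-fold, but with the other scaling its change was 0.03, -0.01 and 0.16. Cd63, a tetraspanin that was measured on 3 of 4 wt medium arrays, fell 1.88-fold, 1.80-fold and 2.23-fold. Scarb2, the receptor that brings glucocerebrosidase to the lysosome, fell 1.46-fold in wt and 1.64-fold in MK2-/- BMDM and was not called in MK2/3-/- BMDM (-0.28). Cd63 and Scarb2 were not called in any genotype with the other scaling. Lamp2 had changes of -0.13, 0.35 and 0.10, none past the test, and its second probe -0.73, -0.01 and -0.16. With scaling to the 75th percentile Lamp2 was called higher in all 3 genotypes (0.72, 1.23 and 1.06).

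Under LPS the share of these genes called between a knockout and wt was near that of all genes after quantile normalisation. Between MK2-/- and wt BMDM 3 of the 36 were called (8.33%, beside 11.6% of all genes), and between MK2/3-/- and wt 7 (19.4%, beside 23.6%). In limma none was called between MK2/3-/- and MK2-/- BMDM, beside 13.5% of all genes, with 1 at an unadjusted p below 0.05 and 4 in the t-test of the methods without adjustment. Leaving out Ctse, 34 of 35 differences from wt lay within 1 log2 unit for either knockout, and the 95% interval lay within it for 29 genes in MK2-/- and 26 in MK2/3-/- BMDM. The small gaps between the shares of the 36 called against wt and those of all genes were not tested. For other fits that compare genotypes, the share of all genes called is not given. When only the groups compared were fitted, none was called for MK2-/- against wt and Npc1 alone for MK2/3-/- against wt, and the t-test of the methods after Benjamini-Hochberg adjustment called none for either knockout. With scaling to the 75th percentile 2 genes were higher and 4 lower in MK2-/- BMDM, and 2 higher and 5 lower in MK2/3-/- BMDM, and among all called genes the share that were higher moved from 39.0% to 63.7% and from 40.7% to 57.3%. Ctse, Npc1 and Ctsl were called under both scalings. With the other scaling Mcoln1 was also lower in both knockouts (-0.81 and -0.63) and Tfeb higher (0.88 and 0.64), Gla was lower in MK2-/- BMDM (-0.65), and Neu1 (-0.79) and Tfe3 (-0.60) were lower in MK2/3-/- BMDM. Other probes of 2 genes differed where the chosen probe was not called. A second Gaa probe was lower under LPS in MK2-/- (-1.21, adjusted p = 0.00122 over probes) and MK2/3-/- BMDM (-0.72, 0.00949), and a second Lamp2 probe was higher in MK2/3-/- BMDM (1.104, 0.0362).

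Npc1 was lower in both knockouts under LPS, and all knockout arrays lay below all wt arrays. The wt arrays read 9.68, 9.76 and 9.85, the MK2-/- arrays 9.45, 9.04, 8.87 and 8.46 and the MK2/3-/- arrays 8.88, 8.98, 9.03 and 8.75. The difference was -0.81 (SE 0.19, adjusted p = 0.0132) for MK2-/- and -0.85 (SE 0.19, adjusted p = 0.0036) for MK2/3-/- BMDM, and both calls held without any 1 of the 22 arrays. A fit of the 2 groups alone did not call Npc1 for MK2-/- BMDM, and the adjusted t-test of the methods called it for neither knockout. In medium Npc1 was 0.39 log2 units lower in MK2-/- BMDM, which did not pass the test after adjustment, while it was called with scaling to the 75th percentile (-0.54) and in the adjusted t-test. The difference of the response between MK2/3-/- and wt was -0.68 with a 95% interval from -1.24 to -0.12 (adjusted p = 0.29).

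Ctsl read 16.59, 16.04 and 15.61 with LPS in wt, 15.44, 15.23, 15.32 and 15.08 in MK2-/- and 14.66, 14.82, 15.53 and 15.29 in MK2/3-/- BMDM. All knockout arrays lay below all wt arrays. The difference was -0.81 (SE 0.25, adjusted p = 0.0446) for MK2-/- and -0.999 (SE 0.25, adjusted p = 0.0082) for MK2/3-/- BMDM. Ctsl was brightest in replicate 1 of wt, and without that array the differences were -0.55 and -0.74 and neither was called. In MK2-/- BMDM the call was lost in 12 of 22 fits that each left out 1 array. In medium Ctsl read 16.73 to 17.47 in wt, 16.28 to 16.91 in MK2-/- and 16.28 to 16.48 in MK2/3-/- BMDM. The medium difference between MK2/3-/- and wt was -0.63 and was not called after quantile normalisation. Replicate 1 of wt was also the wt LPS array highest for Col1a1 (13.56), a collagen gene of stromal cells. Of the MK2/3-/- LPS arrays, those at 5.77 and 7.26 for Col1a1 were the lowest for Ctsl. In MK2-/- BMDM, by contrast, the LPS array highest for Col1a1 (12.10) was the lowest for Ctsl. The part of stromal cells in the Ctsl values was not tested. Ctso read 6.51, 6.51 and 6.01 in wt, 5.60, 5.85, 5.48 and 5.92 in MK2-/- and 5.22, 5.36, 5.75 and 5.96 in MK2/3-/- BMDM, again without overlap. Its difference was -0.77 (SE 0.21, adjusted p = 0.0134) for MK2/3-/- BMDM, and -0.63 (adjusted p = 0.0588) for MK2-/- BMDM. Without wt replicate 1 or 2 under LPS the MK2/3-/- call was lost, as it was with normexp background correction (-0.35), and with scaling to the 75th percentile the difference was -0.02.

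Psap and Mitf were higher in MK2/3-/- than in wt BMDM under LPS. Psap read 14.24, 15.33 and 15.19 in wt and 16.07, 15.92, 15.44 and 15.61 in MK2/3-/- BMDM, without overlap and with a difference of 0.84 (SE 0.30, adjusted p = 0.0467). In MK2-/- BMDM the levels were 15.77, 15.68, 14.92 and 15.63, and the difference of 0.58 was not called. Replicate 1 of wt was the lowest array, and without it the difference was 0.50 and was not called (adjusted p = 0.271). Of the 22 fits that each dropped an array, 14 did not call Psap. In medium Psap differed by 0.48 between MK2/3-/- and wt BMDM, with a 95% interval from -0.14 to 1.11, and was not called. Mitf read 14.01, 14.37 and 14.21 in wt and 14.66, 14.60, 14.80 and 15.03 in MK2/3-/- BMDM, a difference of 0.57 (SE 0.21, adjusted p = 0.0499), which was lost in 17 of 22 fits without 1 array. Its second probe gave 0.65. In medium the Mitf difference was 0.58 with an interval from 0.15 to 1.01, not called after adjustment (adjusted p = 0.146), and the difference of the response was -0.0078. Neither Psap nor Mitf was called with scaling to the 75th percentile (0.60 and 0.43).

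Ctsk, the collagen-degrading cathepsin of osteoclasts, varied widely between arrays. With LPS it read 10.21, 7.58 and 8.18 in wt, 6.69, 6.22, 5.58 and 7.50 in MK2-/- and 5.54, 5.02, 6.25 and 8.71 in MK2/3-/- BMDM. The MK2/3-/- array of replicate 4 lay above 2 of the wt arrays. The difference from wt was -2.28 (SE 0.75, adjusted p = 0.0356) for MK2/3-/- and -2.16 (SE 0.75, adjusted p = 0.0673) for MK2-/- BMDM. Without replicate 1 of wt under LPS the former was -1.50 and was not called (adjusted p = 0.208), and the call was lost in 5 of 22 such fits and with scaling to the 75th percentile (-1.80). In medium the levels were 10.01, 7.79, 7.76 and 8.39 in wt, 7.80, 7.27, 7.37 and 7.70 in MK2-/- and 7.57, 7.71 and 8.43 in MK2/3-/- BMDM. Markers of stromal cells, which also make cathepsin K, varied in the same arrays. Col1a1, the main collagen of such cells, read 13.56, 11.59 and 12.50 with LPS in wt and 14.99, 9.59, 12.07 and 13.00 in medium. In MK2/3-/- BMDM it read 5.77, 7.26, 10.60 and 13.16 with LPS, where the array of replicate 4 was the highest for both genes. Col1a1 read 7.26, 6.90, 10.23 and 12.10 with LPS in MK2-/- BMDM. The summed level of the 5 stromal markers ranged under LPS from 13.47 to 15.89 in wt, 10.64 to 14.21 in MK2-/- and 10.32 to 14.88 in MK2/3-/- BMDM. Of these markers 3 (Col1a1, Col1a2 and Col3a1) were above background on all 22 arrays, Dcn on 19 and Pdgfra on 2. They did not all move alike. Under LPS Col1a2 had means of 14.06, 11.56 and 11.33 in wt, MK2-/- and MK2/3-/- BMDM, and Col3a1 of 9.71, 8.55 and 8.98. Dcn went the other way, with 6.32, 8.01 and 8.17. The list of 6 osteoclast markers had a summed level of 13.13 to 14.72 over all arrays, with Calcr, a defining marker, above background on 4. The part of either cell type in the Ctsk values was not tested.

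**Figure D4:**
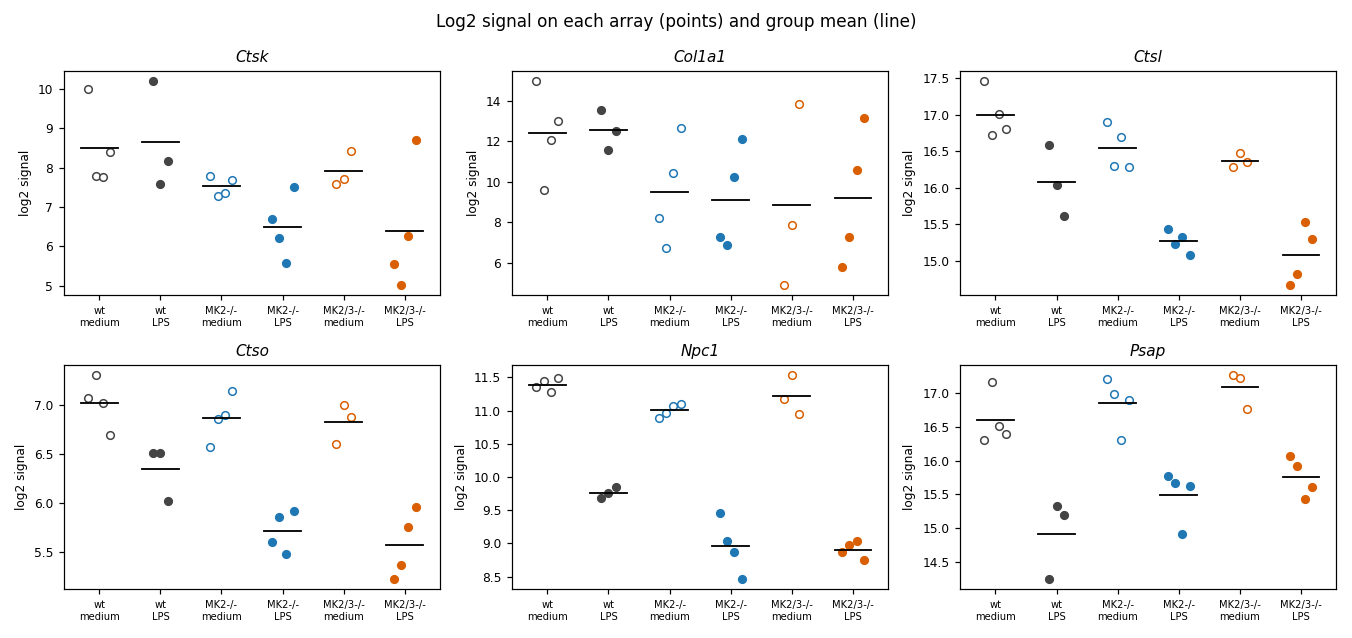
Log2 signal of Ctsk, the stromal marker Col1a1, Ctsl, Ctso, Npc1 and Psap on each array (open points medium, filled points LPS) with the group mean as a line, on a separate y axis per gene. Under LPS the wt points of Npc1, Ctsl and Ctso lie above all knockout points, and the highest Ctsk arrays of wt (10.21) and MK2/3-/- BMDM (8.71) under LPS are also the highest for Col1a1 in their groups.

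Ctse, cathepsin E, an aspartic protease of immune and epithelial cells that is not a classical lysosomal enzyme, was the 1 gene of the 36 called between genotypes in medium as well. In medium it read 5.97, 6.53, 10.22 and 6.48 in wt, 12.60, 10.99, 11.55 and 11.79 in MK2-/- and 11.83, 11.77 and 11.75 in MK2/3-/- BMDM. With LPS it read 2.51, 9.33 and 3.73 in wt, where 2 of the 3 arrays were not well above background, 11.11, 10.46, 9.57 and 10.89 in MK2-/- and 10.50, 9.87, 9.66 and 10.77 in MK2/3-/- BMDM. All knockout arrays lay above all wt arrays of the same treatment. The difference under LPS was 5.32 (SE 1.15, adjusted p = 0.00889) for MK2-/- and 5.01 (SE 1.15, adjusted p = 0.00446) for MK2/3-/- BMDM, with 1 of 3 wt arrays measured above background. In medium it was 4.43 (SE 1.06, adjusted p = 0.0174) and 4.48 (SE 1.15, adjusted p = 0.0489). Ctse was thus the 1 call of 36 (2.78%) in medium in each knockout, beside 8.82% of all genes for MK2-/- and 2.02% for MK2/3-/- BMDM. The calls under LPS held without any 1 of the 22 arrays (differences of at least 3.98 and 3.67) and with normexp background correction, where the differences were 3.21 and 2.94, but neither was called by the adjusted t-test of the methods or by a fit of the 2 groups alone. In medium the call for MK2-/- was lost without wt replicate 1 in medium (3.98), and that for MK2/3-/- in 17 of 22 such fits (4.04 to 5.46). The adjusted t-test called neither in medium, and a fit of the 2 groups alone did not call MK2/3-/-. In limma no gene of the 36 was called between the knockouts in medium, beside 2.82% of all genes, with 2 at an unadjusted p below 0.05 and 2 in the unadjusted t-test of the methods. The change with LPS did not pass the test in any genotype (-2.11, -1.23 and -1.58, SE 1.06 to 1.15). In wt it ran from -4.19 to -0.77 over the 22 limma fits without 1 array, with adjusted p from 0.000708 to 0.625. The lowest value came without the LPS array of wt replicate 2, which left no wt LPS array well above background.

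In 2 wt arrays, replicate 3 in medium and replicate 2 with LPS, Ctse was at 10.22 and 9.33 and near the levels of the knockouts. Both carry the same letter in the authors' array names and the same age of 13 weeks, and both had the lowest Mapkapk2 level of their group, 10.77 against 12.07 to 12.39 in medium and 14.28 against 15.07 and 15.33 with LPS. The age was shared by the medium array of wt replicate 2, which read 6.53 for Ctse and 12.39 for Mapkapk2. In the knockouts Mapkapk2 was lower than in the 2 wt arrays high for Ctse at either treatment (at most 9.01 in medium and 11.95 with LPS). Without these 2 arrays, which were picked for their Ctse level, the wt arrays read 5.97 to 6.53 in medium, and the 2 left with LPS, 2.51 and 3.73, were not well above background. The fitted differences from wt in medium were then 5.40 and 5.46, given as a description. Without the LPS array of wt replicate 2 no wt array under LPS measured Ctse, so that the size of its difference from the knockouts, and of its change with LPS in wt, cannot be given.

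**Figure D5:**
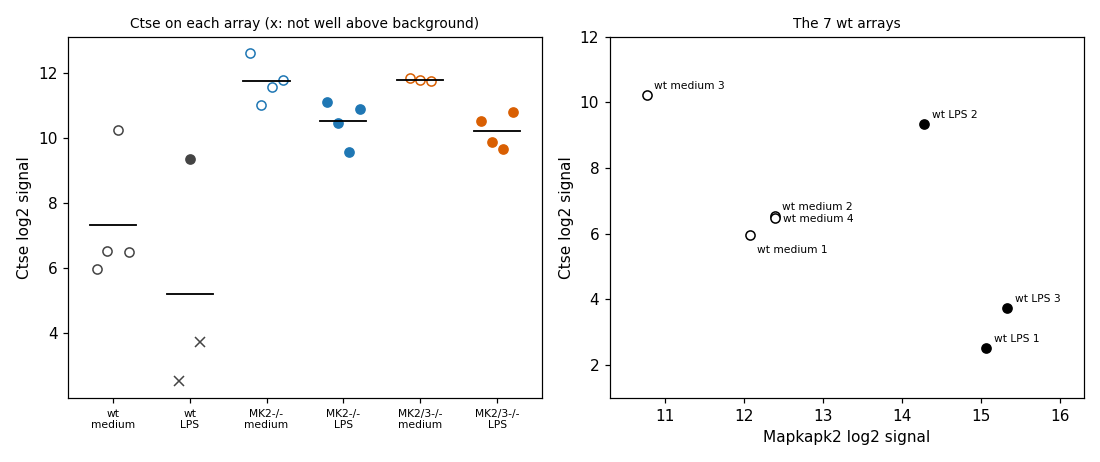
Left, log2 signal of Ctse on each array with the group mean as a line (open points medium, filled points LPS, crosses not well above background). Right, Ctse against Mapkapk2 log2 signal on the 7 wt arrays, where replicate 3 in medium (10.22) and replicate 2 with LPS (9.33) stand above the other arrays for Ctse.

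Ctse lies close to Mapkapk2, the gene deleted in both knockouts, on the same chromosome, as the eighth protein-coding gene after it in the RefSeq order of GRCm38.p6. The 7 genes between them, Dyrk3, Eif2d, Rassf5, Ikbke, Srgap2, Fam72a and Avpr1b, were all tested. Of 17 neighbours in the region, 15 were tested, and in limma none was called in medium (1, 3 and 1 at an unadjusted p below 0.05 for MK2-/- against wt, MK2/3-/- against wt and MK2/3-/- against MK2-/-) or for a difference of the LPS response (0, 3 and 3). Under LPS 2 were called for MK2-/- against wt (Dyrk3 at -1.66 and Il10 at -1.55) and 7 for MK2/3-/- against wt, among them Slc41a1 (-2.35), Il10 (-2.32) and Eif2d (-1.56), each lower, and Fam72a (0.87), higher. All genes were called at 11.6% and 23.6% in these comparisons. Between the knockouts Fam72a was higher (1.035) and Slc26a9 (-1.25) and Slc41a1 (-1.48) lower in MK2/3-/- BMDM, 3 of 15, beside 13.5% of all genes. The part of the position in the Ctse levels was not tested.

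The response to LPS did not differ between genotypes for any of the 36 genes at the adjusted threshold of limma. Of all genes, 0, 0.679% and 0.0670% were called for MK2-/- against wt, MK2/3-/- against wt and MK2/3-/- against MK2-/-, with 1685, 2544 and 1926 genes at an unadjusted p below 0.05. Of the 36, 1 gene each was below that unadjusted value, namely Mcoln1, Npc1 and Tfe3. Without Ctse, the differences ran from -1.20 (Ctsk) to 0.48 (Lamp2), from -1.69 (Ctsk) to 0.36 (Psap) and from -0.56 (Tfe3) to 0.59 (Idua). The 95% interval lay within 1 log2 unit for 26, 24 and 29 of these 35 genes, and for the others it reached beyond a 2-fold difference.

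Other genes of the lysosome, from lists drawn up by function, fell with LPS in part. Of all genes 23.5%, 27.1% and 27.9% were lower and 18.6%, 17.5% and 20.2% higher in wt, MK2-/- and MK2/3-/- BMDM, against which the counts of these lists stand. Of 27 further hydrolases, 15, 19 and 17 fell and 1, 2 and 1 rose in wt, MK2-/- and MK2/3-/- BMDM, and with scaling to the 75th percentile 11, 13 and 10 fell and 2 rose in each. Pla2g15, a lysosomal phospholipase, fell with log2 changes of -3.54, -4.28 and -3.89, Hyal1, a hyaluronidase, of -2.82 in wt and -2.56 in MK2/3-/- BMDM (at least 2.69-fold lower in MK2-/- BMDM, where no LPS array was well above background), and Galc, which degrades galactosylceramide, of -2.76, -3.30 and -3.74. Of 19 further membrane proteins and transporters 9, 11 and 12 fell and 4 rose in each genotype, and with the other scaling 8, 8 and 9 fell and 6, 5 and 6 rose. The calcium and sodium channel gene Tpcn1 fell with log2 changes of -3.74, -4.25 and -4.70, and Ctns, the cystine transporter, of -2.84, -3.44 and -4.72, and Tmem106b of -2.68, -3.20 and -3.99. The response of Ctns (-1.88), of the amino acid sensor Slc38a9 (-1.76) and of the proton pump subunit Atp6v1d (1.22) differed between MK2/3-/- and wt BMDM (adjusted p = 0.0438, 0.0223 and 0.0427), and Slc38a9 and Atp6v1d were named after their values were seen. Among the 19 subunits of the proton pump, 9, 7 and 10 fell and 3, 3 and 4 rose with a median of -0.64, -0.48 and -0.56, but with the other scaling the median turned to 0.08, 0.18 and 0.20. The catalytic subunit gene Atp6v1a fell by 1.01, 1.33 and 0.98 on the log2 scale and Atp6v0d1 by 0.96, 0.90 and 1.04, while Atp6v0e2 fell in wt (-1.17) and was not called in the knockouts (-0.57 and -0.15). With the other scaling none of these 3 was called in wt (-0.21, -0.51 and -0.89).

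Regulators and partners of these enzymes were mixed. A list of 22 genes held the mTORC1 pathway, which keeps TFEB in the cytosol, genes of the phosphatase calcineurin, and Tfec. In this list 12, 13 and 14 fell and 1, 3 and 2 rose, and with the other scaling 9, 9 and 11 fell and 3, 3 and 4 rose. Flcn, which helps mTORC1 act on TFEB, fell with log2 changes of -2.68, -1.95 and -3.32, and Rragb, a lysosomal GTPase of the same branch, which was not well above background on any LPS array, was at least 4.22-fold, 2.74-fold and 2.33-fold lower. Tfec, the MiT relative that is expressed in macrophages, rose with log2 changes of 2.51, 3.07 and 1.89, opposite to Tfeb. Of 10 genes of mannose 6-phosphate sorting, the route that brings enzymes to the lysosome, 5, 4 and 4 fell and 3, 1 and 4 rose, and with the other scaling 2, 1 and 2 fell and 3, 1 and 4 rose. The sorting adaptor gene Gga2 fell with log2 changes of -1.97, -2.67 and -3.38. Nagpa, which uncovers the mannose 6-phosphate tag, rose in wt (1.26) and MK2/3-/- BMDM (1.33) and was not called in MK2-/- BMDM (0.23), and Igf2r, a receptor for the tag, fell in wt (-1.07) and MK2/3-/- BMDM (-1.12) and was not called in MK2-/- BMDM (-0.36). Of the 7 tested cathepsin inhibitors of 9, 2, 1 and 2 fell and 3, 2 and 2 rose, and with the other scaling none fell and 3, 3 and 2 rose. Cst7, cystatin F, which inhibits cathepsin C, rose with log2 changes of 4.02, 5.76 and 6.73. Stfa2l1, of the stefin family, rose in wt (2.06) and was not called in the knockouts (-0.04 and 0.03). Cst3, cystatin C, fell with log2 changes of -0.92, -0.85 and -0.92, and with scaling to the 75th percentile its change was -0.08, -0.10 and 0.05.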

How the data were processed

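RNA of each sample was labelled with Cy3 and hybridised by the authors to an Agilent 1-colour mouse array. The deposited scanner files, made with Agilent Feature Extraction 11.0.1.1, hold background-corrected signal intensity per spot without normalisation from array to array. A second deposited table of the authors holds log2 values, quantile normalised and centred on the median per their methods, which was used as an alternative (r of 0.993 to 0.999 with the values used here). The methods' genome build and annotation version are not given in the sources used here.

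Control spots were left out, marked spots were set to missing (no spot was saturated), and log2 intensity was quantile normalised over 22 arrays. Precision is limited by the number of arrays, since intensities carry no counts. RefSeq probes were named through the RefSeq table of GRCm38.p6 (27509 of 29150), a probe entered if 3 arrays or more had it well above background, and each gene was represented by its brightest probe on average. Of 8 members with several kept probes, disagreeing ones are given in the text. Arrays were grouped by their labels, and no replicates were duplicates (smallest median absolute difference 0.25). limma 3.58.1 in R 4.3.3 fitted a mean per group over 22 arrays with eBayes, with two-sided p-values adjusted by Benjamini-Hochberg over 22379 genes. Intervals are 95% intervals of the moderated fit.

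The members, gene lists and tests were chosen with earlier results of these data known. All members are named, and genes of other lists are named where their LPS change in wt was among the 3 largest of those called in the list. Alternatives were the 75th percentile scaling, normexp background correction (offset 50, on median signals, since the scanner files used hold no mean signal), the authors' table, other filters and probes, the t-test of the methods, only the groups compared, array weights, blocks for replicate number or letter, and leaving out arrays. Each slide holds 1 genotype, so a slide block could not be fitted between genotypes.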

Additional observations from a re-analysis of the deposited data

Results flagged for a closer look

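In groups of 4 arrays, an array far from the other 3 was found in 6 of 143 groups of the 36 genes, and chance gives about 1 in 20. Ctse read 10.22 on the medium array of wt replicate 3, with the others at 5.97 to 6.53. Hexa read 15.40 on the LPS array of MK2/3-/- replicate 1, with the others at 14.69 to 14.77. Psap read 14.92 on the LPS array of MK2-/- replicate 3, with the others at 15.63 to 15.77, and Tfeb read 5.47 on the same array, with the others at 6.52 to 6.64. This array had 2927 marked spots and a Y-linked signal against its label. Lamp1 read 16.87 on the LPS array of MK2-/- replicate 2, with the others at 16.75 to 16.77, and Mcoln1 read 12.00 on the LPS array of MK2-/- replicate 4, with the others at 11.60 to 11.63. Without replicate 3 of MK2-/- BMDM, with and without LPS, 28, 27 and 28 genes were called with LPS in wt, MK2-/- and MK2/3-/- BMDM. For that fit the share of all genes called is not given.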

How the results depend on the processing

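Scaling to the 75th percentile turned the sign of the LPS change of 7, 4 and 5 genes in wt, MK2-/- and MK2/3-/- BMDM, and in wt Gla, Npc2 and Lamp2 were then called higher (0.47, 0.74 and 0.72, from -0.31, -0.05 and -0.13, uncalled). Of the values of single genes recomputed under the alternatives, 368 kept their side of the threshold, 55 lost a call and 9 gained one. Scaling to the 75th percentile gave 18 genes called with LPS in wt and 16 in MK2/3-/- BMDM, and under LPS 6 for MK2-/- against wt and 1 for MK2/3-/- against MK2-/-, and in medium 2 for either knockout against wt. The methods' t-test gave 8 and 4 under LPS for MK2-/- against wt and MK2/3-/- against MK2-/-, and in medium 4, 4 and 2 without adjustment. After Benjamini-Hochberg it gave 0 under LPS for either knockout against wt and 0 in medium for MK2/3-/- against wt. Fitting only the groups compared gave 0 and 1 under LPS for MK2-/- and MK2/3-/- against wt and 0 in medium for MK2/3-/-. Array weights gave 7 under LPS for MK2-/- against wt, 2 in medium for MK2/3-/- against wt and 1 in medium between the knockouts. The replicate number as a block gave 5 and 1 under LPS for MK2-/- against wt and MK2/3-/- against MK2-/-, 2 and 0 in medium for MK2-/- and MK2/3-/- against wt, and 28, 29 and 30 with LPS. The deviations of same-numbered arrays of a genotype correlated above 0.1 in 7 of 10 pairs and not in all, so the numbers were not taken as pairs. Same-letter arrays of a genotype had equal ages in all 10 pairs and correlated above 0.1 in 7 of them (median 0.164). Arrays with unlike letters did so in 5 of 30 pairs (median -0.085). The methods do not say whether same-letter arrays share a mouse, and LPS and medium were fitted as separate groups. The letter of the array name as a block moved no count of called genes by more than 1. The authors' table and no filter on dim probes each gave 0 in medium for MK2/3-/- against wt. Without replicate 3 of MK2-/- BMDM, chosen after seeing the data, 1 was called under LPS between the knockouts and 0 in medium for MK2/3-/- against wt. Leaving out each array in turn gave 23 (without wt LPS replicate 3) to 28 called with LPS in wt, 27 to 29 in MK2-/- and 28 to 29 in MK2/3-/- BMDM. Under LPS it gave 2 to 5 for MK2-/- against wt, 2 (without wt LPS replicate 1) to 7 for MK2/3-/- against wt and 0 to 1 between the knockouts, and 0 to 1 in medium for either knockout against wt. The cause of these moves was not tested. Apart from LPS against medium with scaling to the 75th percentile, the share of all genes called under these alternatives is not given. A move of a count can thus not be told apart from a general gain or loss of calls. Signal over background limits Ctse in wt, where 1 of 3 LPS arrays was measured.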
